A study of Mus musculus with 9 samples.

Results

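The nuclear genes of oxidative phosphorylation were followed through 3 ages of the mouse lacrimal gland, the gland that secretes the watery layer of the tear film. Members were taken by name: protein-coding genes of the deposited count table whose symbol marks a subunit of complex I, II, III or IV of the respiratory chain or of ATP synthase. They numbered 85 of 54232 genes, of which 35 belonged to complex I, 4 to complex II, 8 to complex III, 20 to complex IV and 18 to ATP synthase. Ndufa4 and its paralog Ndufa4l2, named as complex I genes, were counted with complex IV, where the Ndufa4 protein is now placed. Libraries came from C57BL/6J female mice with free access to food aged 2, 12 or 24 months, with 3 per age (8W in the youngest samples' titles). No genotype or treatment separated the groups. The labels do not say whether a library is 1 mouse or a pool, so the p-values cover only how much these samples differ within an age, and that spread may be technical.

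The respiratory chain passes electrons from NADH (through complex I) and succinate (through complex II) to ubiquinone, then through complex III and cytochrome c to oxygen at complex IV, and ATP synthase uses the proton gradient so built to make ATP. Most subunits are encoded in the nucleus and imported, while a core set is encoded by mitochondrial DNA, and assembly needs both. Acinar cells of the lacrimal gland secrete protein and fluid, and both processes use ATP.

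Each library held 40516863 to 42573877 counts, of which the 10 most abundant genes took 61.1 to 67.8% and the members 0.307 to 0.383%. Of the 85 members 80 had enough counts to be tested, and 76 averaged at least 2 CPM, the count relative to library size, with at least 62 counts in every library. Lacrimal acinar markers summed to 4531 to 5639 CPM at 2 months, 4029 to 4540 at 12 months and 4449 to 6650 at 24 months, and all 7 were detected. With TMM scaling 1 of the 7 was called lower than at 2 months at 12 months, and 1 lower and 1 higher at 24 months. Markers of other cell types were also called: 7 of 8 B and plasma cell markers, 6 of 6 T cell markers, 5 of 8 macrophage markers and 8 of 8 adipocyte markers rose at 12 months, and 8, 6, 8 and 7 at 24 months. Salivary gland transcripts were most abundant in 2-month replicate 3 (809 CPM summed), followed by 12-month replicate 2 (359 CPM) and 24-month replicate 2 (244 CPM), and reached 68.9 CPM in 2-month replicate 2 against 0.398 to 7.12 CPM in the other 5 libraries. Skeletal muscle transcripts summed to 34.3 and 69.5 CPM in 12-month replicates 1 and 3 against at most 2.72 elsewhere. Their part in the results below was not tested.

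Relative to other genes, the members stood lower at 12 and 24 months than at 2 months. With TMM scaling, which sets the bulk of genes equal between libraries, 19 of the 80 tested members were lower at 12 months (edgeR quasi-likelihood test, adjusted p under 0.05), where 2.52% of all tested genes were. At 24 months 40 were lower, against 7.55% of all tested genes. No member was called higher in either comparison (5.4% and 9.81% of all genes were). At an unadjusted p under 0.05, 1 member was higher at 12 months and 0 at 24 months, DESeq2 called 1 and 0, and voom 0 and 0. The median log2 fold change of the 76 members at 2 CPM or more was -0.33 at 12 months and -0.39 at 24 months, with 73 and 72 of them below 0, where the median of all tested genes was 0.01 in both.

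The size of the difference and the calls depended on the scaling. With library totals alone the members' medians were -0.02 and -0.08, while the median of all genes stood at 0.31 in both comparisons. Set against that median the members lay at -0.33 and -0.39, as with TMM (-0.34 and -0.40). Calls followed the scaling: with library totals 1 member was lower in each comparison, Uqcrb, where 0.535% and 1.28% of genes were. In each, 1 was higher, Cox6a2 at 12 months and Ndufs1 at 24 months, where 10.8% and 17.5% of genes were. As a share of all counts the members took 0.336 to 0.356% at 2 months, 0.334 to 0.353% at 12 months and 0.307 to 0.383% at 24 months, with overlap throughout. All 3 older libraries lay below all 3 young ones for 6 members at 12 months (2.25% of all genes) and 9 at 24 months (4.19%), and above for 13 (35.4%) and 5 (31.8%). In bulk tissue fewer cells of a type and less RNA per cell cannot be told apart.

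By library, the median over the 76 genes of the log2 level relative to each gene's mean was 0.06, 0.39 and 0.18 at 2 months with TMM. It was -0.12, -0.19 and 0.01 at 12 months, and -0.11, -0.18 and -0.15 at 24 months. All 3 young libraries lay above all 6 older ones, and 2-month replicate 2 lay highest. With library totals the same medians were 0.01, 0.08 and -0.03, then -0.05, 0.02 and 0.07, then -0.20, -0.06 and 0.13, and the ages overlapped. The TMM factors were 0.958, 0.801 and 0.857 at 2 months against 0.939 to 1.21 at the other ages.

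**Figure D1:**
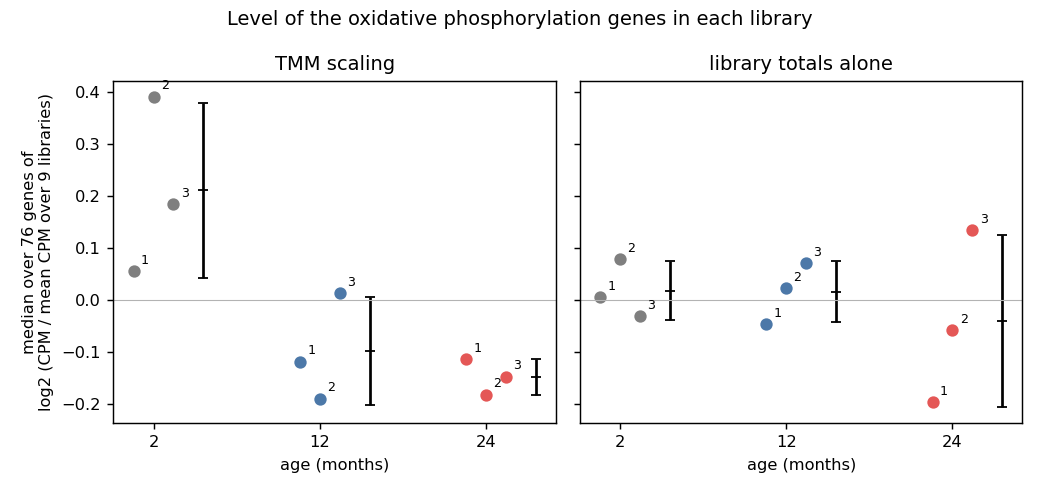
Each point is the median over 76 genes of log2(CPM / mean CPM over the 9 libraries) in 1 library, numbered by replicate, with the mean and SD of the 3 libraries of an age in black, under TMM scaling (left) and library totals alone (right). On the left the 2-month libraries (0.06 to 0.39) lie above the older ones (-0.19 to 0.01), and on the right the ages overlap.

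The number of calls varied with the library left out, among the members and over all tested genes. Of the 19 at 12 months, 3 held whichever library was left out (Uqcrb, Uqcrq and Atp5j), and each of the others was lost on leaving out any of 3 to 7 libraries. In all, 3 were left without 2-month replicate 2, 2-month replicate 3 or 12-month replicate 2, and 4 without 12-month replicate 1, while 33 were lower without 2-month replicate 1. Over all tested genes 377 were lower at 12 months with every library, and 121, 175, 103, 194 and 400 in these settings, in the same order. Of the 40 at 24 months, 13 held throughout, while 13 were left without 2-month replicate 2, 21 without 2-month replicate 3, 16 without 24-month replicate 2 and 23 without 24-month replicate 3. Over all tested genes 1130 were lower at 24 months with every library, and 469, 608, 641 and 551 in these settings, in the same order. Without the 3 libraries highest in salivary gland transcripts 1 call was left in each comparison, that of Uqcrb, with medians of -0.28 and -0.38. Over all tested genes the lower calls in that setting were 30 at 12 months and 142 at 24 months, against 377 and 1130 with all 9 libraries. That setting kept 2-month replicate 2, the library with the highest member level, whose salivary transcripts summed to 68.9 CPM against 0.398 to 7.12 in the 5 others kept. Without the 2 libraries with muscle transcripts 4 and 31 members were lower, and 105 and 857 of all tested genes.

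With edgeR the calls were spread over all complexes but complex II, which has 4 genes. DESeq2 and voom each called 1 of these lower at 24 months. At 24 months with TMM scaling 18 of 35 complex I members were lower, 0 of 4 of complex II, 5 of 8 of complex III, 9 of 16 tested of complex IV and 8 of 17 tested of ATP synthase. At 12 months the counts were 6, 0, 5, 5 and 3. Over all tested genes 7.55% were lower at 24 months and 2.52% at 12 months, so 0 of 4 does not set complex II apart. Medians at 24 months were -0.42, -0.12, -0.50, -0.39 and -0.35 in the same order, or -0.11, 0.18, -0.18, -0.08 and -0.04 with library totals. Differences between complexes were not tested. The complex II transcripts were 1142 to 3171 bases long. The 26 members with transcripts of at least 1000 bases had a median of -0.21 at 24 months with TMM. Across the 3 ages together 36 of 80 members differed, where 17% of tested genes did: 16 of complex I, 0 of complex II, 4 of complex III, 9 of complex IV and 7 of ATP synthase.

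**Figure D2:**
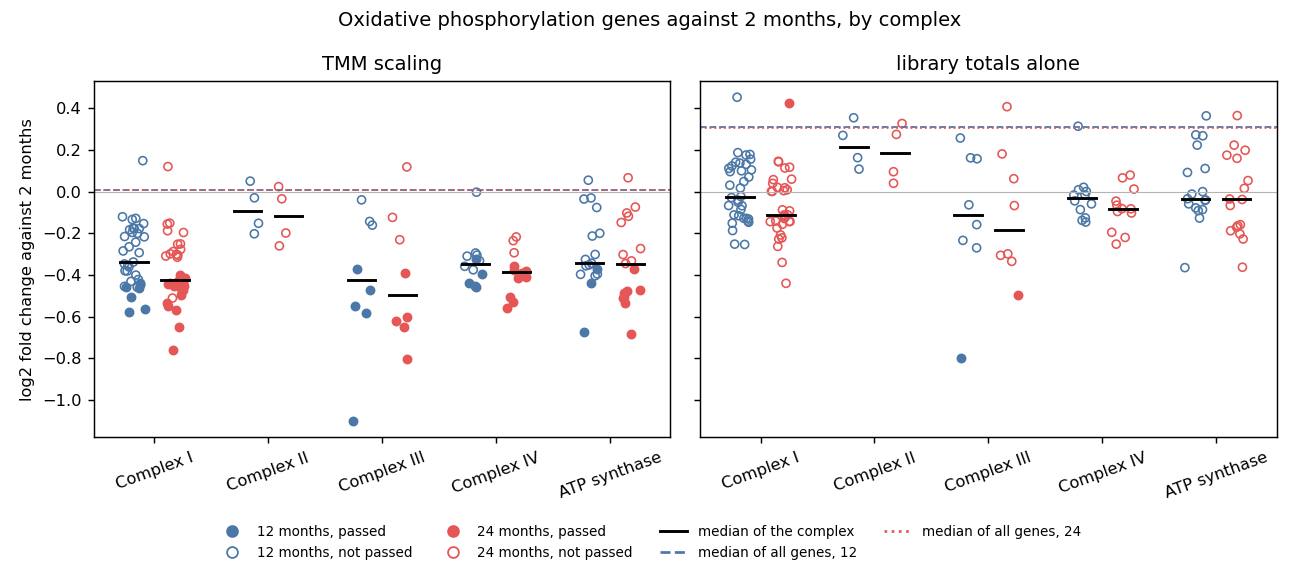
Each circle is the log2 fold change of 1 gene against 2 months, at 12 (blue) and 24 months (red), filled where the adjusted p was under 0.05; black bars are medians of a complex and broken lines the medians of all tested genes. With TMM (left) the medians of complexes I, III, IV and ATP synthase lie between -0.34 and -0.50 and all genes at 0.01, and with library totals (right) they lie between -0.02 and -0.18 and all genes at 0.31.

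Complex I takes electrons from NADH. Its 7 nuclear core subunits carry the flavin and iron-sulfur clusters, and the accessory subunits surround them. With TMM scaling 15 of 28 accessory and 3 of 7 core genes were lower at 24 months, and 6 and 0 at 12 months, when 3 core genes had an unadjusted p under 0.05, DESeq2 called 2 and voom 0. No complex I gene was lower with library totals. Ndufc1, a small accessory subunit (ENSMUSG00000037152, chr3:51404677-51408988), had 10.4, 15.6 and 13.5 CPM at 2 months, then 7.88, 8.93 and 9.63 at 12 months and 7.51, 7.72 and 8.01 at 24 months. All older libraries lay below the young ones. Its log2 fold change was -0.58 ± 0.15 (SE, adjusted p = 0.0335) at 12 months and -0.76 ± 0.15 (adjusted p = 0.00601) at 24 months, and -0.44 (adjusted p = 0.0838) at 24 months with library totals.

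Ndufa5, an accessory subunit of the peripheral arm (chr6:24518666-24528013), had 15.1, 17.96 and 14.9 CPM at 2 months, then 10.95, 10.9 and 13.2 at 12 months and 10.3, 9.62 and 10.7 at 24 months. The 2-month libraries lay above all others. Its log2 fold change at 24 months was -0.65 ± 0.12 (adjusted p = 0.00421). Ndufb3, a membrane arm accessory subunit, had 32.8 to 41.3 CPM at 2 months, 30.5 to 33.95 at 12 months and at most 27.9 at 24 months, so that the 24-month libraries lay below every other library. Its log2 fold change was -0.22 (adjusted p = 0.200) at 12 months and -0.45 ± 0.10 (adjusted p = 0.00916) at 24 months. These 3 accessory genes were called at 24 months whichever single library was left out.

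The other accessory genes named by the rule had calls that rested on single libraries. Ndufa8 lay at -0.49 (adjusted p = 0.0167) at 24 months, Ndufb9 at -0.57 (adjusted p = 0.0226), Ndufs6 at -0.45 (adjusted p = 0.0240) and Ndufb11, the complex I gene with the highest level per kilobase (73.1 CPM), at -0.42 (adjusted p = 0.0369). All 4 calls were lost without 2-month replicate 2 (adjusted p = 0.0761, 0.103, 0.0996 and 0.145) and without 24-month replicate 2 (adjusted p = 0.0540, 0.0628, 0.0691 and 0.109). The calls of Ndufa8, Ndufb9 and Ndufb11 were also lost without 2-month replicate 3 (adjusted p = 0.0609, 0.0670 and 0.104), those of Ndufb9, Ndufs6 and Ndufb11 without 24-month replicate 3 (adjusted p = 0.0848, 0.0803 and 0.0984), and that of Ndufb11 without 12-month replicate 1 or 24-month replicate 1 (adjusted p = 0.0510 and 0.0573). Exons of other genes overlap 19.5% of the exon length of Ndufb9 and 12.9% of that of Ndufb11, and 10 further members exceed 10%. Without a stated strand setting, reads in such stretches cannot be assigned to 1 gene with certainty.

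The 3 core genes of complex I called at 24 months, named after their values were seen, were Ndufs7 at -0.55 (adjusted p = 0.0161), Ndufs8 at -0.47 (adjusted p = 0.0357) and Ndufv2 at -0.41 (adjusted p = 0.0127). All 3 calls were lost without 2-month replicate 2 (adjusted p = 0.0713, 0.146 and 0.0525). That of Ndufs7 was also lost without 24-month replicate 3 (0.0519), that of Ndufv2 without 24-month replicate 2 (0.0562), and that of Ndufs8 without 2-month replicate 3 (0.0879), 12-month replicate 2 (0.0562), 24-month replicate 1 (0.0912) or 24-month replicate 2 (0.121). Ndufs1, the largest core subunit, which holds iron-sulfur clusters, had 17.4, 18.7 and 15.8 CPM at 2 months, then 18.5, 17.98 and 21.1 at 12 months and 18.3, 19.4 and 18.8 at 24 months. Its ages overlapped, with log2 fold changes of 0.15 (adjusted p = 0.411) and 0.12 (adjusted p = 0.450) under TMM. With library totals it lay at 0.45 (adjusted p = 0.0506) and 0.42 (adjusted p = 0.0472), and the latter was a call. Core genes held 23.8 ± 1.4% of complex I counts in the youngest group (SD, n = 3), 25.3 ± 0.40% at 12 months and 25.0 ± 0.19% at 24 months, and the ages overlapped.

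Complex II, which is also the succinate dehydrogenase of the TCA cycle, is built from 4 subunits, all of them nuclear. None of its genes was called in either comparison with edgeR. At an unadjusted p under 0.05, 1 was lower at each age, and at 24 months DESeq2 and voom each called 1. Sdha, the flavoprotein, had 55.9, 56.4 and 52.8 CPM at 2 months, then 54.7, 55.6 and 60.7 at 12 months and 57.4, 51.4 and 59.0 at 24 months, and the ages overlapped. Its log2 fold changes were 0.05 (adjusted p = 0.799) and 0.02 (adjusted p = 0.895). Sdhb, the iron-sulfur subunit, lay at -0.15 and -0.20 (adjusted p = 0.528 and 0.317). Sdhd, a membrane anchor, lay at -0.03 and -0.03 (adjusted p = 0.904 and 0.863).

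Sdhc, the other membrane anchor, was nearest to a call. It had 52.2 to 58.3 CPM at 2 months, 47.2 to 48.8 at 12 months and 44.3 to 48.8 at 24 months. The 2-month libraries lay above the rest, at -0.20 (adjusted p = 0.168) and -0.26 ± 0.08 (adjusted p = 0.0508). The share of member counts taken by complex II, which no scaling affects, was 4.83 ± 0.18% at 2 months, 5.64 ± 0.14% at 12 months and 5.51 ± 0.22% at 24 months. The highest 2-month library (4.99%) lay below the lowest older one (5.37%), and counting error was at most 0.129 percentage points (95% Wilson half-width).

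Complex III passes electrons from ubiquinol to cytochrome c. Its gene Uqcrb, for the subunit that binds near the ubiquinone site, had the highest level per kilobase of the 76 members (228.5 CPM, against a median of 46.4). Uqcrb (ENSMUSG00000021520, chr13:66900617-66905378) had 180.8, 201.4 and 157.4 CPM at 2 months, then 86.3, 74.5 and 90.8 at 12 months and 99.2, 107.3 and 102.5 at 24 months. The 3 ages did not overlap, and 12 months was lowest. Levels fell by 53.4% at 12 months (log2 fold change -1.10 ± 0.12, adjusted p = 0.000581) and fell by 42.7% at 24 months (-0.80 ± 0.12, adjusted p = 0.00132). The difference between 24 and 12 months was 0.30 ± 0.12 and missed the threshold (adjusted p = 0.184).

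Uqcrb was the member whose call held under all 22 alternatives with an adjusted p for it, in both comparisons. With library totals its log2 fold changes were -0.80 (adjusted p = 0.00428) and -0.50 (adjusted p = 0.0249). The raw counts of the young libraries were 7261, 6862 and 5567, those of 12 months 3825, 3647 and 3996, and those of 24 months 3790, 4682 and 5095. The lowest young library lay above the highest older one. It took 33.1 ± 2.2% of complex III counts at 2 months, 22.6 ± 0.68% at 12 months and 26.6 ± 1.3% at 24 months. Without it, complex III held 9.49 ± 0.19, 9.19 ± 0.12 and 9.19 ± 0.13% of the remaining member counts, against 13.6 ± 0.54, 11.6 ± 0.23 and 12.1 ± 0.22% of all member counts with it.

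**Figure D3:**
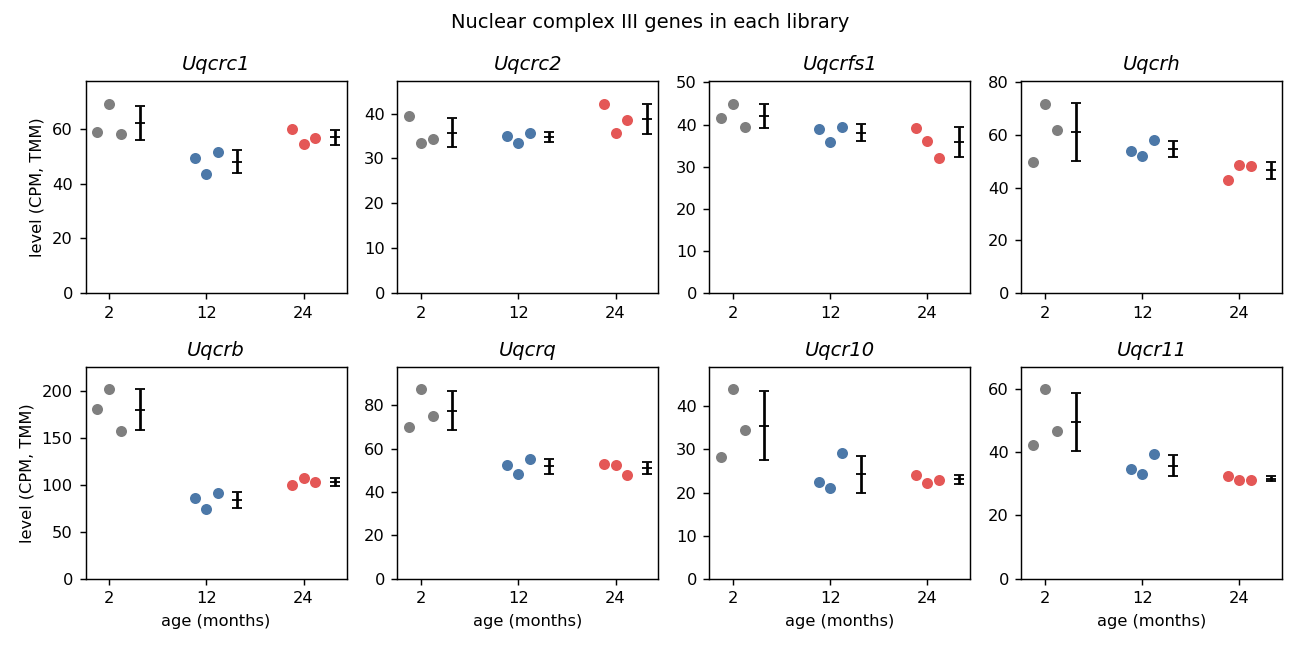
Levels (CPM, TMM) of the 8 nuclear complex III genes in the 9 libraries, with the mean and SD of the 3 libraries of an age beside the points. Uqcrb, lower with library totals too, falls from 157.4 to 201.4 CPM at 2 months to 74.5 to 90.8 at 12 months, while Uqcrc2 overlaps at all ages.

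The other small subunits followed with smaller differences. Uqcrq, a small subunit of the membrane part (chr11:53427922-53430831), had 70.0, 87.2 and 75.2 CPM at 2 months, then 52.3, 48.2 and 55.0 at 12 months and 53.0, 52.2 and 47.8 at 24 months. All 6 older libraries lay below the young ones, at -0.58 ± 0.10 (adjusted p = 0.00607) and -0.60 ± 0.10 (adjusted p = 0.00321). With library totals it lay at -0.27 and -0.30 (adjusted p = 0.103 and 0.0627). Uqcr11 lay at -0.47 (adjusted p = 0.0337) and -0.65 ± 0.12 (adjusted p = 0.00513), with 42.1 to 59.7 CPM at 2 months and 31.0 to 32.5 at 24 months. Uqcr10 lay at -0.55 (adjusted p = 0.0495) and -0.62 (adjusted p = 0.0184). The 12-month call was lost on leaving out any of 7 libraries, all but 2-month replicate 1 and 12-month replicate 3 (adjusted p up to 0.210), and the 24-month call on leaving out 2-month replicate 2 (adjusted p = 0.0842) or, at 24 months, replicate 2 (0.0616) or 3 (0.0566). Uqcrh, the acidic hinge protein, lay at -0.16 (adjusted p = 0.486) and -0.39 (adjusted p = 0.0486), a call at the edge of the threshold that 8 of 9 single libraries ended when left out (adjusted p up to 0.192).

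Of the large core proteins, which face the matrix, Uqcrc1 was called at 12 months and Uqcrc2 at neither age. Uqcrc1 had 58.9, 69.2 and 58.3 CPM at 2 months, then 49.4, 43.4 and 51.4 at 12 months and 59.8, 54.3 and 56.8 at 24 months. The 12-month libraries lay below all others, at -0.37 ± 0.10 (adjusted p = 0.0444), and 24 months lay at -0.12 (adjusted p = 0.445). The 12-month call was lost without any of 6 libraries (2-month replicates 1 to 3, 12-month replicates 1 and 2 and 24-month replicate 2), with an adjusted p of up to 0.208. Uqcrc2 had 33.5 to 39.4 CPM at 2 months, 33.5 to 35.8 at 12 months and 35.7 to 42.2 at 24 months, and lay at -0.04 and 0.12 (adjusted p = 0.852 and 0.433).

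Complex IV, cytochrome c oxidase, reduces oxygen, and its nuclear subunits wrap a catalytic core encoded by mitochondrial DNA. With TMM scaling 9 of the 16 tested genes were lower at 24 months and 5 at 12 months, and none was lower with library totals. Cox7c (chr13:86044816-86046904) had 35.6, 46.3 and 50.6 CPM at 2 months, then 33.2, 33.4 and 35.5 at 12 months and 31.7, 30.1 and 28.2 at 24 months. The lowest young library, replicate 1, lay just above the highest 12-month one. Its log2 fold change was -0.38 (adjusted p = 0.0719) at 12 months and -0.56 ± 0.12 (adjusted p = 0.00851) at 24 months. Cox7a2, the broadly expressed subunit 7a isoform, lay at -0.45 (adjusted p = 0.0255) and -0.53 ± 0.11 (adjusted p = 0.00736). Ndufa4 had 62.4 to 67.0 CPM at 2 months, 49.3 to 52.6 at 12 months and 47.2 to 51.0 at 24 months, at -0.33 (adjusted p = 0.0323) and -0.38 ± 0.08 (adjusted p = 0.00988). These 3 calls at 24 months held with any single library left out.

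Cox5a, a matrix-side subunit, lay at -0.46 (adjusted p = 0.0122) and -0.39 (adjusted p = 0.0154), and Cox4i1, the broadly expressed subunit 4 isoform, at -0.33 (adjusted p = 0.118) and -0.51 (adjusted p = 0.0148). The 24-month calls of both were lost without 2-month replicate 2 (adjusted p = 0.0652 and 0.0628), that of Cox5a also without 2-month replicate 3 (0.0580) or 24-month replicate 2 (0.0628), and that of Cox4i1 without 24-month replicate 3 (0.0566). The 12-month call of Cox5a was lost without 2-month replicate 2 (0.0590), 2-month replicate 3 (0.0531) or 12-month replicate 2 (0.0705). Cox8a, the complex IV gene with the highest level per kilobase (164.6 CPM), lay at -0.36 (adjusted p = 0.0531) and -0.42 (adjusted p = 0.0175). Its call at 24 months was lost without 2-month replicate 2 (0.0689), 2-month replicate 3 (0.0546) or 24-month replicate 2 (0.0648). Cox7a2l had 100.0, 131.0 and 114.5 CPM at 2 months, then 111.9, 113.6 and 119.3 at 12 months and 105.8, 101.1 and 86.6 at 24 months. The 24-month libraries lay below those of 12 months (log2 fold change -0.23, not called), and the 2-month libraries overlapped both. Against 2 months Cox7a2l lay at -0.003 (adjusted p = 0.992) and -0.24 (adjusted p = 0.196).

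Complex IV also has isoforms restricted to other tissues, and these were near the floor of detection. Cox6a2, the heart and skeletal muscle isoform of subunit 6a, was counted 7, 1 and 3 times in the young libraries, 22, 8 and 68 times in those of 12 months and 3, 7 and 14 times in those of 24 months. The highest libraries were 12-month replicates 1 and 3, where Acta1, skeletal muscle actin, had 341 and 985 counts against 0 to 17 in the other 7. Its log2 fold change at 12 months was 2.86 ± 0.87 and missed the threshold with TMM (adjusted p = 0.0672), and with library totals it was 3.09 (adjusted p = 0.0439). Cox8b, the muscle isoform of subunit 8, had 1, 1 and 5 counts, then 9, 4 and 20, then 0, 17 and 1. Its 12-month values followed the same libraries, whereas the 17 counts in 24-month replicate 2 came with 221 counts of Elovl3 and 180 of Cidea, 2 of the 6 brown adipocyte markers. In 24-month replicate 3, with 59 and 107 counts of these 2 markers, Cox8b had 1 count. Dio2, Ppara and Cox7a1 had 9, 40 and 5 counts in 24-month replicate 2, within the range of the other libraries. Ucp1, the defining marker, had at most 1 count in any library, and the summed list was at 10.4 CPM in 24-month replicate 2 against 1.17 to 4.05 in the others. The part of muscle and brown fat cells in these values was not tested.

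**Figure D4:**
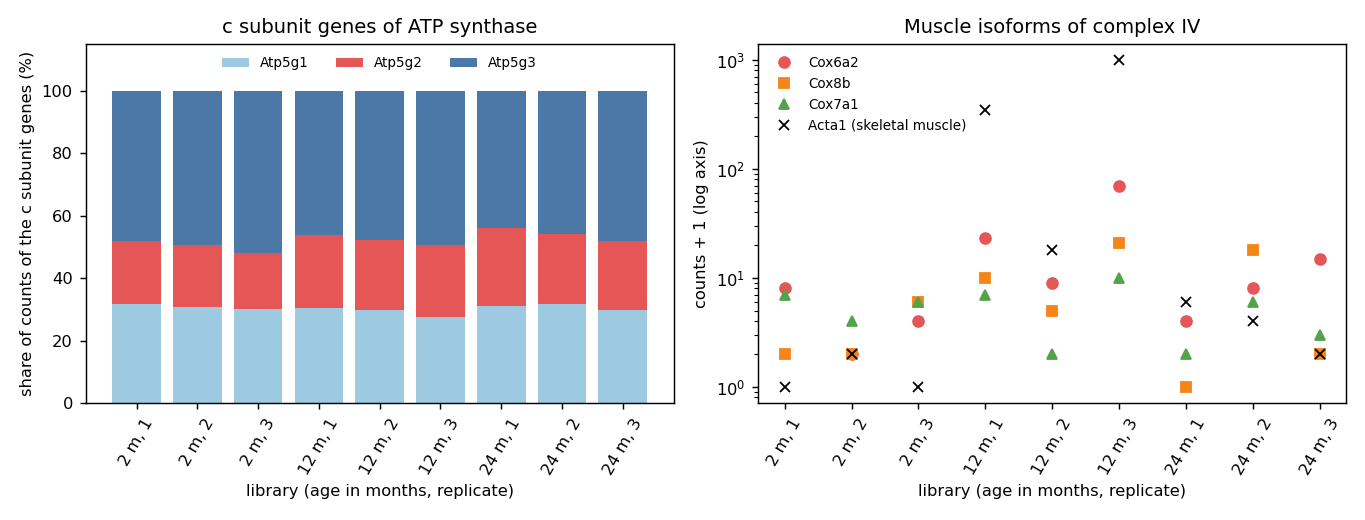
Left, the share of the counts of the c subunit genes of ATP synthase taken by Atp5g1, Atp5g2 and Atp5g3 in each library; Atp5g2 is at 18.03 to 20.1% at 2 months and 22.3 to 24.8% later. Right, counts + 1 on a log axis of the muscle isoforms of complex IV beside Acta1; Cox6a2 is highest (22 and 68 counts) in the 2 libraries with the most Acta1.

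The remaining restricted isoforms stayed low at all ages. Cox7a1, the muscle and brown fat isoform of subunit 7a, had 1 to 9 counts in every library and Cox6b2, the testis isoform of subunit 6b, 2 to 21. Cox7b2 had 0 to 4 and Cox8c 0 to 2, and 2 of 5 germ cell markers had no count in any library, with a summed level of at most 0.163 CPM. Cox4i2, the oxygen-responsive isoform of subunit 4, had 9 to 37 counts and 0.440 ± 0.18, 0.478 ± 0.14 and 0.695 ± 0.29% of Cox4i counts at 2, 12 and 24 months. Ndufa4l2, which hypoxia induces and pericytes express, had 43, 24 and 47 counts, then 26, 34 and 44, then 51, 52 and 85, and lay at -0.45 (adjusted p = 0.503) and 0.45 (adjusted p = 0.418). Pericyte markers summed to 14.2 to 18.8 CPM at 2 months, 13.9 to 17.5 at 12 months and 16.5 to 25.7 at 24 months, with the highest sum in the library with 85 counts. A second gene model with the symbol Atp5o had no count, and its exons overlap those of Atp5o and Donson over 100% of their length. Reads in such stretches cannot be assigned to 1 gene with certainty, so the absence of counts does not bound its level.

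ATP synthase couples a catalytic F1 head to a membrane rotor of c subunits, held by a peripheral stalk. With TMM scaling 8 of 17 tested genes were lower at 24 months and 3 at 12 months, and none with library totals. Of the F1 genes, 1 of 5 was lower at 24 months and 0 at 12 months. That gene, Atp5e for the epsilon subunit, had 28.6, 40.8 and 28.4 CPM at 2 months, then 22.6, 21.6 and 29.7 at 12 months and 19.5, 20.3 and 21.1 at 24 months. The 24-month libraries lay below all others, at -0.68 ± 0.15 (adjusted p = 0.0110), and 12 months lay at -0.40 (adjusted p = 0.128). Atp5b, the catalytic beta subunit and the F1 gene with the highest level per kilobase (160.7 CPM), had 340.95, 335.6 and 327.1 CPM at 2 months, then 282.6, 254.3 and 277.5 at 12 months and 338.5, 293.1 and 321.6 at 24 months. Its 12-month libraries lay below all others, at -0.30 (adjusted p = 0.112), while 24 months lay at -0.07 (adjusted p = 0.687).

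In the peripheral stalk Atp5j, for coupling factor 6 (chr16:84827866-84835625), had 101.8, 125.9 and 103.8 CPM at 2 months, then 68.7, 64.6 and 74.3 at 12 months and 79.8, 74.9 and 74.4 at 24 months. The older libraries lay below the young ones without overlap, at -0.67 ± 0.11 (adjusted p = 0.00351) and -0.53 ± 0.11 (adjusted p = 0.00685). With library totals it lay at -0.36 (adjusted p = 0.0514) and -0.23 (adjusted p = 0.162). Exons of Gabpa, on the opposite strand, overlap 12.7% of its exon length. In the membrane part Atp5j2 lay at -0.44 (adjusted p = 0.0291) and -0.51 ± 0.11 (adjusted p = 0.00884), from 51.7 to 66.7 CPM at 2 months to 40.5 to 42.8 at 24 months. Atp5h of the stalk lay at -0.47 (adjusted p = 0.0171) at 24 months and was lost without 2-month replicate 2 (0.0728), 2-month replicate 3 (0.0561), 24-month replicate 2 (0.0564) or 24-month replicate 3 (0.0544). Atp5s, a coupling factor relative with the lowest level per kilobase (1.72 CPM), had 1.62 to 3.68 CPM. Its 24-month libraries lay just below the 2-month ones, and those of 12 months overlapped both.

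The c subunit of the rotor is made from 3 genes whose mature proteins are identical. Atp5g3 had 75.7, 94.2 and 87.0 CPM at 2 months, then 65.5, 62.7 and 73.2 at 12 months and 59.2, 59.8 and 64.3 at 24 months. The older libraries lay below the young ones, at -0.35 (adjusted p = 0.0621) and -0.49 ± 0.11 (adjusted p = 0.00987). Atp5g1 lay at -0.37 (adjusted p = 0.0276) and -0.37 (adjusted p = 0.0162). The 12-month call was lost without 2-month replicate 2 or 3 or any 12-month library (adjusted p up to 0.140), and the 24-month call without 2-month replicate 2 (0.0667), 24-month replicate 2 (0.0513) or 24-month replicate 3 (0.0618). Atp5g2 had 30.3 to 37.4 CPM at 2 months, 29.8 to 33.8 at 12 months and 29.3 to 33.4 at 24 months, at -0.04 (adjusted p = 0.879) and -0.10 (adjusted p = 0.537). Its share of the counts of the 3 genes, independent of scaling, was 19.3 ± 1.1% at 2 months, 23.0 ± 0.41% at 12 months and 23.2 ± 1.4% at 24 months. The highest young library (20.1%) lay below the lowest older one (22.3%), with a 95% Wilson half-width of at most 1.18 percentage points.

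Between 12 and 24 months no member was called in either direction with edgeR, where 1.6% of all tested genes were lower and 2.79% higher. At an unadjusted p under 0.05, 3 were lower and 3 higher, and DESeq2 and voom called 0. All 3 libraries of 24 months lay below all 3 of 12 months for 11 members (12.6% of all genes) and above for 5 (12.1%). With library totals 0 were lower or higher by adjusted p (0.923% and 1.35% of genes), 4 lower and 3 higher at an unadjusted p under 0.05, and all 3 libraries of 24 months lay below all 3 of 12 months for 5 members (10.4%) and above for 4 (9.05%). The median was -0.05 and that of all genes -0.02, and without 12-month replicate 3 the members' median turned to 0.02. For 12 against 2 months the corresponding count below was 42 (12.4% of genes) and for 24 against 2 months 54 (16.6%).

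The size of the difference varied with transcript length. Over the 76 members the rank correlation of log2 fold change with the length of the transcript was 0.59 at 24 months and 0.41 at 12 months, and over 13007 tested coding genes it was 0.14 and 0.17. These are correlations across genes of the same libraries, and genes are not independent replicates. The 50 members under 1000 bases had medians of -0.37 at 12 months and -0.45 at 24 months, and the 26 longer ones -0.18 and -0.21. All tested coding genes under 1000 bases (1000 genes) had medians of -0.17 and -0.24, and the longer ones 0.02 and 0.04. Sdha, Ndufs1, Uqcrc2, Atp5a1 and Atp5b, with transcripts of 1896 to 2900 bases, lay between -0.07 and 0.12 at 24 months. Ndufa10 (2020 bases) and Sdhc (3171 bases), the other members of at least 1896 bases, lay at -0.30 and -0.26 and were not called. With a trend on length and GC content removed, 18 members were lower at 12 months and 24 at 24 months, of which 15 and 22 were among the calls above. The members' median at 24 months moved from -0.39 to -0.25, and that of all tested genes from 0.01 to -0.04. Over all tested genes 488 and 1236 were lower with the trend removed, against 377 and 1130 without its removal.

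**Figure D5:**
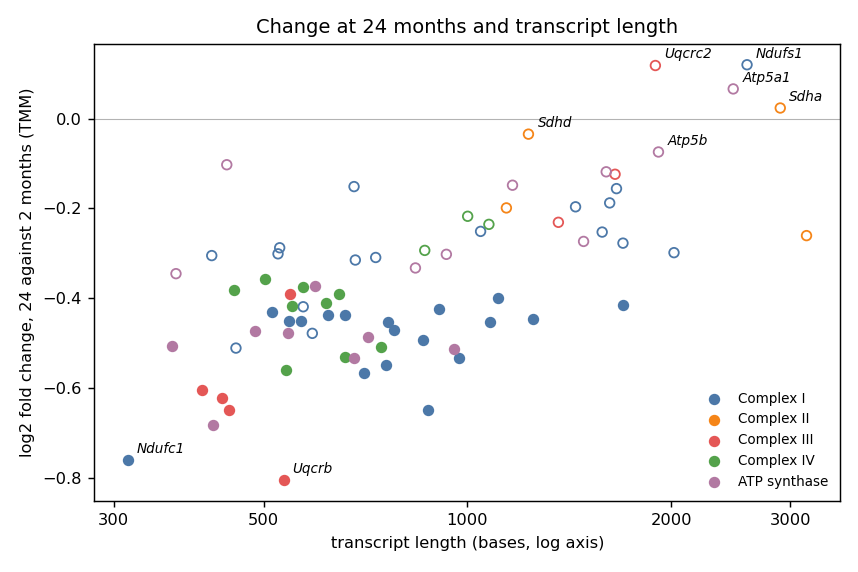
Log2 fold change at 24 against 2 months (TMM) of the 76 genes plotted against transcript length in bases on a log axis, coloured by complex and filled where the adjusted p was under 0.05. Short genes such as Ndufc1 (-0.76) and Uqcrb (-0.80) lie lowest and long ones lie higher, from Ndufa10 (-0.30) and Sdhc (-0.26) to Sdha (0.02) and Ndufs1 (0.12), with a rank correlation of 0.59; with library totals the call of Uqcrb alone remains among the lower ones.

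Some subunits encoded by mitochondrial DNA were lower too with TMM scaling. Of 13 tested, 3 were lower at 12 months and 5 at 24 months, where 2.52% and 7.55% of all tested genes were. With library totals 0 were lower, where 0.535% and 1.28% of all genes were, and the medians moved from -0.45 and -0.40 to -0.14 and -0.12. mt-Nd4, a proton-pumping subunit of complex I, was counted 76604 to 88288 times in the young libraries and 65902 to 73854 times in the older ones, without overlap, at -0.58 (adjusted p = 0.0444) and -0.52 (adjusted p = 0.0425). mt-Atp6 and mt-Co3 lay at -0.74 and -0.62 at 12 months and -0.62 and -0.65 at 24 months, and mt-Co2 and mt-Nd6 were called at 24 months (-0.60 and -0.47). The genes mt-Atp6, mt-Co2 and mt-Co3 had 188 to 331 counts in every library where mt-Co1 had 132241 to 179072. How reads shared with nuclear copies were counted is not stated, so their levels are uncertain. Counts of mitochondrial DNA subunits per count of nuclear members were 3.40 to 4.65 over the libraries.

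Over 7 lists of genes that serve the complexes without being part of them, 5 of 98 tested genes were lower at 12 months (5.1%, against 2.52% of all genes) and 9 at 24 months (9.18%, against 7.55%). With TMM scaling 1 of 14 TCA cycle genes was lower at each age, Idh2, the NADP-dependent mitochondrial isocitrate dehydrogenase, at -0.40 (adjusted p = 0.0438) and -0.49 (adjusted p = 0.0120). Of 15 tested complex I assembly factors 1 was lower at 12 months, Ecsit (-0.43), and 1 at 24 months, Ndufaf4 (-0.36). Among 10 assembly factors of complexes II and III, Ttc19 was lower at both ages (-0.36 and -0.31) and Sdhaf1, needed for iron-sulfur insertion into Sdhb, at 24 months (-0.91, adjusted p = 0.0155). Of 21 tested complex IV assembly factors Coa3 and Cmc2 were lower at 12 months (-0.50 and -0.66) and Cmc2 at 24 months (-0.64). None of 4 ATP synthase assembly factors was called, the smallest p being that of Fmc1 (-0.26 and -0.52, adjusted p = 0.489 and 0.105).

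Cyc1, the cytochrome c1 of complex III, whose symbol falls outside the naming rule, was lower at both ages (-0.35 and -0.27, adjusted p = 0.0204 and 0.0403), and Cycs, cytochrome c, lay at -0.25 and -0.12 (adjusted p = 0.234 and 0.531). Of 20 membrane and import genes 0 were called at 12 months and 3 were lower at 24 months, which were the import pore Tomm40 (-0.64), the porin Vdac2 (-0.40) and the prohibitin Phb2 (-0.35). Of 14 regulators of mitochondrial gene expression 1 was lower at 24 months, Pprc1, a PGC-1 related coactivator (-0.65, adjusted p = 0.0144). None of the genes in these lists was lower with library totals, and 5 were higher at 24 months (5.1%, against 17.5% of all genes). Medians of the lists with TMM lay between -0.36 and -0.02 at 12 months and between -0.25 and -0.02 at 24 months, and with library totals between -0.05 and 0.28 at 12 months and between 0.06 and 0.28 at 24 months. The difference between these lists and the members was not tested.

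Promoters of respiratory genes are known for sites of NRF1, of ETS factors such as NRF2 (GABP), of the estrogen-related receptors (ERR) and of YY1. RefSeq windows on GRCm38.p6, from 250 bases before to 50 after a start, were found for 66 of 85 members, 62 of them among the 76. Stretches of 100 bases from 4 of them, on the gene's strand, are shown because each holds 1 of the motifs, in capitals, in a gene called lower at 24 months (Ndufa11, Uqcr11 and Atp5g3) or not (Sdhd): an NRF1 motif in Ndufa11 (chr17:56717662-56717761), ETS motifs in Uqcr11 (chr10:80406822-80406921) and Sdhd (chr9:50603850-50603949), and an ERR motif in Atp5g3 (chr2:73911327-73911426). Sdhd and Atp5g3 hold it on the opposite strand. The corresponding stretch of Atp5g2, not called at 24 months (adjusted p = 0.537), also held an NRF1 motif and is not shown. Ndufa11, an accessory subunit of complex I chosen for its motif, had 28.5 to 43.6 CPM at 2 months, 24.3 to 26.8 at 12 months and 23.1 to 27.1 at 24 months. It lay at -0.45 (adjusted p = 0.0638) and -0.45 (adjusted p = 0.0395), and the latter was lost on leaving out any of 8 libraries, all but 2-month replicate 1 (adjusted p up to 0.149).
Ndufa11: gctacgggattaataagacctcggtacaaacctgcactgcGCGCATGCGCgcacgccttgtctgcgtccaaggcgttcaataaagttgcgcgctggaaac
Uqcr11: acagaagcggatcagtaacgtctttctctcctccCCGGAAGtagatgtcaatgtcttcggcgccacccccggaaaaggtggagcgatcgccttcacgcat
Sdhd: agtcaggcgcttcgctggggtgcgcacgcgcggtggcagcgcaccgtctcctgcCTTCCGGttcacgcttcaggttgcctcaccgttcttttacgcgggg
Atp5g3: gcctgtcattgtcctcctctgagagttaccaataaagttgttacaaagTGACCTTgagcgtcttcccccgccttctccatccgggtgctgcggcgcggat

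Motifs were searched on both strands, and no window held overlapping matches of different motifs. The ETS motif CCGGAAG was found in 15 of the 62 windows (24.2%), against 16.31% of the windows of tested genes and 8.86% of all 32851 windows. The NRF1 motif, the capitals in the Ndufa11 stretch, was in 5 (8.1%, against 1.92 and 0.97%), the ERR motif AAGGTCA in 8 (12.9%, against 3.37 and 4.72%) and the YY1 motif AAGATGGC in 8 (12.9%, against 4.07 and 2.75%). Genes lower at 24 months and the others both held them: the ETS motif was in 11 of 34 and 4 of 28, the NRF1 motif in 2 and 3, the ERR motif in 4 and 4 and the YY1 motif in 5 and 3. Uqcr11 and Sdhd, with the ETS motifs shown, lay at -0.65 and -0.03 at 24 months. A match is a description of letters in the window and not a measured site.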

How the data were processed

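Lacrimal gland RNA was measured in 9 libraries, 3 per age. Per the submitters' processing notes, the tools were HTSeq, STAR, cutadapt, DESeq2 and FastQC and the assembly GRCm38. For tool versions, annotation release, strand setting and read filters the entry is: not given in the sources used here. Deposited values are whole-number counts per gene, and a deposited table of log2 values equals log2(count / factor + 1) with 1 median-of-ratios factor per library in 100% of values (within 1e-06). The log2 values served for that check alone.

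Members were the protein-coding genes of the count table whose GENCODE M21 symbol matches a subunit family of complex I to IV or ATP synthase (Nduf a, b, c, s or v, Sdh, Uqcr, Cox4 to Cox8, Atp5). Members, lists and comparisons were chosen with earlier results of these data known. Per complex, the members named are up to 6 with the smallest p across the 3 ages, those highest and lowest per kilobase, all isoform groups, and those not expressed throughout. Others are marked where they appear. From each accompanying list, called members were named, at most 4 with the smallest p, and where none was called the 1 with the smallest p.

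All genes were tested together with edgeR 4.0.16 (R 4.3.3) by its quasi-likelihood F test after TMM scaling. A single model of age held the 9 libraries. After filterByExpr at a count of 10, 14958 genes remained, with at least 99.93% of every library's counts. The common coefficient of variation was 21.2%, on 6 residual degrees of freedom. Calls are Benjamini-Hochberg adjusted p-values under 0.05 over the 14958 genes tested. The procedure was tested on simulated data. Totals of 40516863 to 42573877 counts per library leave genes of a few counts untested or imprecise. Alternatives were library totals alone, RLE scaling, no 10 most abundant genes, other filters, DESeq2 1.42.0, voom of limma 3.58.1 with sample weights, the ages compared alone, the replicate number as a block, each library left out, a threshold of 0.01, and leaving out the libraries with salivary gland or skeletal muscle transcripts. Removing a trend on transcript length and GC content was added after seeing the data. Promoter windows came from RefSeq on GRCm38.p6. Python 3.11.15, numpy 2.4.6, scipy 1.17.1, pandas 2.3.3 and matplotlib 3.10.9 were used.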

Additional observations from a re-analysis of the deposited data

Results flagged for a closer look

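Ndufb1-ps (ENSMUSG00000113902) carries a complex I subunit name but is typed in GENCODE M21 as a long noncoding RNA from a bidirectional promoter, so it was not counted among the protein-coding members. It was counted 473, 427 and 429 times in the young libraries, 447, 431 and 476 times in those of 12 months and 297, 396 and 480 times in those of 24 months. The lowest of these, 297 counts, is above the 3 that a count of 0 allows, and the ages overlapped. The other 11 genes with such a name that are not protein coding are all pseudogenes.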

How the results depend on the processing

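The members lower at 12 months (19 with TMM) became 1 with library totals, 31 with no filter on low counts, 35 with DESeq2, 3 at a threshold of 0.01, 1 without the libraries with salivary gland transcripts, 4 without those with muscle transcripts and 3 to 33 with 1 library left out. Over all tested genes (14958 with TMM, 31340 with no filter, 17303 with DESeq2) the lower calls numbered 377 with TMM. In the same order they became 80, 663, 645, 87, 30, 105 and 103 to 417. Members higher at 12 months (0) became 1 with library totals, no filter or DESeq2, and 0 to 1 with 1 library left out. Over all genes 808 were higher with TMM, then 1610, 1362 and 1137, and 314 to 916 with 1 library left out. The members lower at 24 months (40) became 1 with library totals, 12 at a threshold of 0.01, 1 without the salivary libraries, 24 with the length and GC trend removed and 13 to 48 with 1 library left out, and 1 was higher with library totals. Over all genes 1130 became 192, 352, 142, 1236 and 469 to 1115 in the same order, and 2625 were higher with library totals. Between 24 and 12 months 1 member was lower with no filter, where 612 of 31340 genes were.

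Median log2 fold changes with library totals were -0.0204 at 12 months and -0.0824 at 24 months. With 1 library left out the 24-month median was -0.45 to -0.27, and with the length and GC trend removed -0.25, where that of all tested genes was -0.04. The median between 24 and 12 months (-0.05) turned to 0.0466 without the muscle libraries and to 0.0164 with the trend removed, and was -0.0722 to 0.0223 with 1 library left out. The cause was not tested.

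Deviations of samples that share a replicate number correlated at -0.155 to 0.06, and those of samples with different numbers at -0.191 to 0.228. With deviations taken from a mean of 3 libraries, this cannot settle whether the numbers mark a pairing, which the labels do not say. With the replicate block 6 members were lower at 12 months and 32 at 24 months, where 189 and 786 of all tested genes were. With the trend removed and the replicate block together, 7 and 13 were lower, with a 24-month median of -0.25 and a 24 against 12 median of 0.0155. Over all tested genes 251 and 840 were lower in that setting, and their 24-month median was -0.04. Of 45 calls of named genes, 43 missed the threshold with library totals, 17 with the block and 29 without 2-month replicate 2, and none changed sign under any alternative. Members of few counts, such as Cox7b2 and Cox8c, could not be compared at this depth.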
